A study of Mus musculus with 6 samples.

Results

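The ZBTB family was described in naive CD8 T cells, with and without LAIR-1, as the 39 rows of the deposited count table, of 14515 gene rows, whose symbol starts with Zbtb and a digit; the row Zbtb7b was left out. RNA came from spleens of 3 Lair1+/+ mice (wild type) and 3 Lair1-/- mice (LAIR-1-deficient, lacking an inhibitory collagen receptor of leukocytes), with 1 library per mouse from 100000 cells, sorted through a gate that included CD45+, CD3+, CD8+ and CD44-. Age, sex, strain and the construction of the Lair1 allele were not given in the sources used here. Members were chosen by name, but with the genotype comparison of these libraries already known, so genotype differences of members are given here as a description and support nothing further.

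ZBTB proteins carry a BTB domain, through which they pair with each other and bind corepressors such as NCOR and BCOR, and a set of zinc fingers that binds DNA. Many act as repressors, and several decide lymphocyte fates: Zbtb16 (PLZF) directs innate-like T cells, Zbtb46 marks classical dendritic cells, and Zbtb1 and Zbtb17 (MIZ1) are needed for lymphocyte development. Zbtb4, Zbtb33 (Kaiso) and Zbtb38 bind methylated CpG. One member, Zbtb8os, is named only for lying opposite Zbtb8a and encodes a relative of archease, a factor of tRNA ligation, so by its product it is no ZBTB protein.

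Libraries held between 5519748 and 9187017 counts over genes (7974206, 9187017 and 8939919 in Lair1+/+ mice 1 to 3, and 7039990, 5519748 and 7296424 in Lair1-/- mice 1 to 3), so depth was lower throughout the Lair1-/- group. Lair1, the targeted gene, had 58, 32 and 43 counts in Lair1+/+ mice 1 to 3 and 2, 1 and 1 in Lair1-/- mice 1 to 3. Its log2 fold change was -4.58 ± 0.57 (SE; edgeR adjusted p = 0.00255), and its adjusted p was above 0.05 with limma-voom (0.142), without Lair1+/+ mouse 1 (0.0592) and without mouse 1 of both groups (0.0712). The marker genes of the sort were abundant, with Cd3e at 1375 ± 151 and 1365 ± 247 CPM and Cd8a at 925 ± 60.3 and 939 ± 42.2 CPM in Lair1+/+ and Lair1-/- cells (SD, n = 3 each; CPM is the usual depth-corrected count, here with TMM-scaled library sizes). Both libraries of mouse 1 stood apart from the rest in immediate early genes, a class of transient response genes. The 25 such genes listed summed to 15500 and 18622 CPM in mouse 1 of the Lair1+/+ and Lair1-/- groups and to between 6795 and 7811 CPM in the 4 others. What raised them in mouse 1 was not tested. Where leaving out mouse 1 of both groups turned a fold change given below or moved it by over 1.5 times, that value is printed beside it; this was not computed for Zbtb26. Litters, sorting days and sequencing runs were not given in the sources used here. In these bulk samples, fewer cells that transcribe a gene and less of its RNA per cell cannot be told apart.

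Most ZBTB members were transcribed in naive CD8 T cells at low to moderate levels, led by Zbtb7a. Of the 39 members, 18 (46.2%) had a mean of at least 10 CPM, 15 lay between 1 and 10 CPM and 6 (15.4%) were below 1 CPM. Over all 14515 rows, 45.6% reached 10 CPM and 32.4% were below 1 CPM. The members summed to between 528 and 576 CPM in Lair1+/+ and between 536 and 597 CPM in Lair1-/- libraries, so the groups overlapped. The 10 most abundant members, picked from these same counts, took 67.4% of the family's 25453 counts pooled over all libraries. The 95% Wilson interval of 66.8 to 67.9% holds counting error only. It does not measure the spread between mice, which was not computed for this share.

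**Figure D1:**
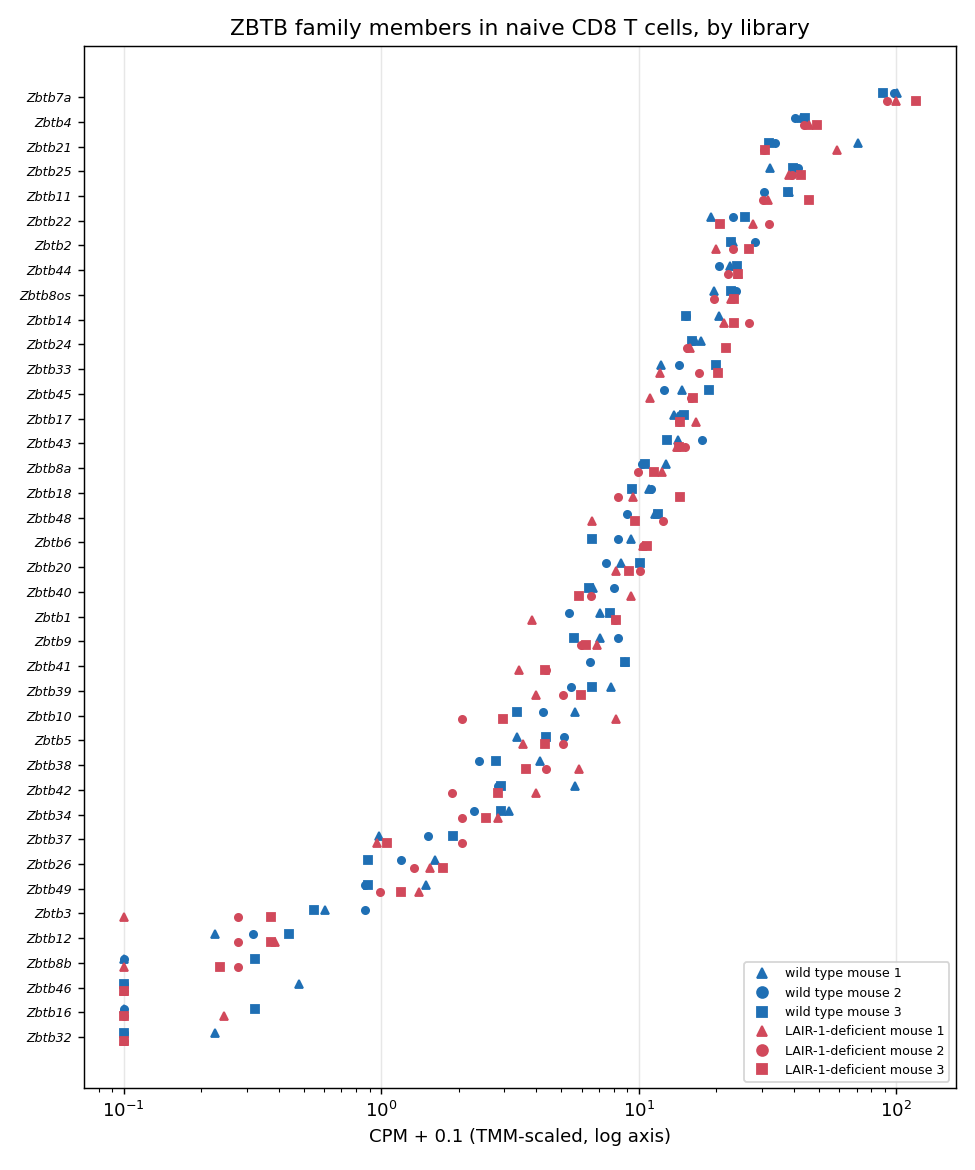
Level of each of the 39 ZBTB members in each of the 6 libraries, as CPM + 0.1 on a log axis, with members ordered by mean level. Zbtb7a lies near 100.0 CPM in all libraries, and the lowest members, among them Zbtb46, Zbtb16 and Zbtb32, were at 0 in most libraries.

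Zbtb7a (LRF), a repressor known for silencing fetal globin and for directing lymphoid progenitors between the B and T cell fates, was the highest member. It was at 100.0, 97.6 and 88.7 CPM in Lair1+/+ mice 1 to 3 and at 99.7, 92.0 and 118.9 CPM in Lair1-/- mice 1 to 3. Its 6 libraries stayed above every library of every other member, and the genotype groups overlapped. Zbtb25 was at 32.2, 41.5 and 39.5 CPM in Lair1+/+ and 38.3, 39.3 and 42.5 CPM in Lair1-/- mice. Zbtb11, a gene required for mitochondrial function, was at 38.1, 30.6 and 37.9 CPM and at 31.6, 30.2 and 45.7 CPM. Both overlapped between genotypes. Zbtb22, which lies in the extended MHC region of chromosome 17, was at 19.0, 23.2 and 25.8 CPM and at 27.5, 31.8 and 20.5 CPM, again with overlap. Zbtb2 was at 23.2, 28.1 and 22.7 CPM and at 19.7, 23.1 and 26.7 CPM. Zbtb44 was at 22.6, 20.4 and 24.0 CPM and at 24.2, 22.1 and 24.2 CPM, and Zbtb8os at 19.5, 23.6 and 22.7 CPM and at 22.8, 19.6 and 23.4 CPM. The genotypes overlapped for all 3.

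Levels were compared between members per kilobase of annotated exon. Whether the reads cover whole transcripts is not given in the sources used here. The rank correlation of CPM with exon length was 0.003 over 9477 tested genes with a length and -0.27 over the 32 tested members. Dividing by length lowers long members whether or not their counts rise with length, so both scales are given. Per kilobase, Zbtb7a had 14.6 ± 1.55, Zbtb25 12.4 ± 1.16, Zbtb22 9.22 ± 1.77, Zbtb21 6.75 ± 2.76 and Zbtb4 5.45 ± 0.361 CPM per kb (SD over 6 libraries). Zbtb7a and Zbtb25 differed by less than the sum of their SDs, and so did Zbtb22 and Zbtb21, and Zbtb21 and Zbtb4. Within each library Zbtb7a was nevertheless above Zbtb25, while the order within the other pairs changed between libraries. Zbtb8os, Zbtb11 and Zbtb8a followed at 4.87 ± 0.416, 4.80 ± 0.812 and 4.78 ± 0.499 CPM per kb and were not apart. Zbtb20 moved from rank 20 by CPM to rank 30 per kb (0.286 ± 0.0345), because its many annotated transcripts join to 30730 exonic bases, the most of any member. The family's median was 1.71 CPM per kb, against 1.59 over the 14312 rows with a length.

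Of the remaining members with known roles in development, Zbtb17, Zbtb18, Zbtb20 and Zbtb1 were detected in all 6 libraries, while Zbtb16, Zbtb46 and Zbtb32 had at most 3 counts in any library. Zbtb17, which pairs with MYC, was at 13.6, 14.3 and 14.9 CPM in Lair1+/+ and 16.6, 14.2 and 14.4 CPM in Lair1-/- mice. Zbtb18 (RP58), a repressor best known from neurons, was at 10.8, 11.1 and 9.31 CPM and at 9.37, 8.18 and 14.4 CPM. Zbtb20, a repressor of liver, brain and plasma cells, was at 8.45, 7.33 and 9.98 CPM and at 8.07, 9.96 and 9.02 CPM. These members overlapped between genotypes. Zbtb1 was at 6.94, 5.25 and 7.63 CPM in Lair1+/+ and at 3.75, 8.004 and 8.07 CPM in Lair1-/- mice, with Lair1-/- mouse 1 the lowest of all 6.

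The innate T cell regulator Zbtb16 had 2 counts in Lair1+/+ mouse 3, 1 in Lair1-/- mouse 1 and 0 in the 4 others. The dendritic cell factor Zbtb46 had 3 counts, all in Lair1+/+ mouse 1, and Zbtb32 (ROG), a repressor of activated lymphocytes, had 1 count, also in Lair1+/+ mouse 1. A count of 0 allows up to 3 counts, which is between 0.328 and 0.534 CPM depending on the library, so no genotype difference was detectable for these members. Other markers of those lineages were also low. The dendritic cell genes Flt3, Itgax, Clec9a and Batf3 were below 1 CPM on average in both groups. Xcr1 averaged 0.405 CPM in Lair1+/+ and 1.14 CPM in Lair1-/- cells, with 2.05 CPM in Lair1-/- mouse 3. Csf1r averaged 1.25 and 1.51 CPM, with 3.55 CPM in that same library, and Cd68 averaged 3.21 and 3.51 CPM. All 9 dendritic cell and myeloid markers summed to between 57.9 and 71.9 CPM in Lair1+/+ and between 57.5 and 75.3 CPM in Lair1-/- libraries, mostly from Cst3. The 4 markers of NK and innate-like T cells found in the table summed to between 401 and 421 CPM and between 394 and 439 CPM. Of these, Ncr1 and Klrb1c averaged below 1 CPM, and the sum was carried by Nkg7 and Eomes, which CD8 T cells also transcribe. The 6 B cell markers in the table summed to between 30.3 and 33.3 CPM and between 27.2 and 33.4 CPM. The CD4 lineage genes Cd4 and Foxp3 together reached between 0.883 and 4.04 CPM and between 1.96 and 4.24 CPM, and Alas2, the 1 erythroid marker in the table, averaged 0.810 and 0.557 CPM.

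The methyl-CpG binding members differed widely in level. Zbtb4 was at 42.6, 40.4 and 44.2 CPM in Lair1+/+ and 45.5, 43.8 and 49.1 CPM in Lair1-/- mice. Zbtb33, on the X chromosome, was at 12.1, 14.2 and 19.7 CPM and at 11.96, 17.1 and 20.2 CPM. Zbtb38 was at 4.04, 2.30 and 2.69 CPM and at 5.77, 4.27 and 3.55 CPM. All 3 overlapped between genotypes; for Zbtb38 the overlap was that of Lair1+/+ mouse 1 with Lair1-/- mouse 3. Among members tied to genome upkeep, Zbtb24, which is mutated in a form of the ICF immunodeficiency syndrome, was at 17.3, 16.1 and 16.0 CPM and at 15.7, 15.3 and 21.7 CPM. The telomere binding member Zbtb48 (TZAP) was at 11.5, 8.86 and 11.8 CPM and at 6.49, 12.3 and 9.57 CPM, and Zbtb40 was at 6.56, 7.88 and 6.28 CPM and at 9.23, 6.40 and 5.74 CPM. The groups overlapped for all 3.

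All 39 members matched protein coding genes of GENCODE vM21 (GRCm38, the build mm10 named by the submitters), on 14 chromosomes. For 22 of them no other annotated gene shares exonic bases, while 17 overlap another gene, 14 of these on the opposite strand. Since the strand setting of the counting is not given in the sources used here, counts of such members may hold reads of the partner. Overlap on the same strand, which no strand setting resolves, was annotated for 7 members, among them Zbtb21 (with C2cd2) and Zbtb22 (with Tapbp). Zbtb14 and Zbtb11 are among those with a partner on the opposite strand. Zbtb8a and Zbtb8os share exonic bases on opposite strands, and Zbtb6 and Zbtb26 share them on the same strand. Zbtb25 and Zbtb1 start back to back on chromosome 12, 663 bases apart, yet Zbtb25 averaged 38.9 CPM and Zbtb1 6.61 CPM, or 12.4 and 0.542 CPM per kb. Zbtb43 and Zbtb34, 18962 bases apart on chromosome 2, averaged 14.6 and 2.53 CPM.

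Promoters of 4 members on which the results turn are shown as RefSeq windows of 300 bases (GRCm38.p6, 250 before to 50 after the annotated start, written in the direction of transcription). Zbtb41 (chr1:139422133-139422432, plus strand) had the largest genotype fold change of the tested members, Zbtb21 (chr16:97962573-97962872, minus strand) was high in mouse 1, Zbtb11 (chr16:55973554-55973853, plus strand) is an abundant member with most of the motif kinds searched, and Zbtb7a (chr10:81136021-81136320, plus strand) was the highest member. Capitals mark matches, on either strand, to the cAMP response element TGACGTCA, the E-box CACGTG, the ETS site CCGGAAGT, the palindromic NRF1 site and the GC box GGGCGG, none of which contains another.
Zbtb41: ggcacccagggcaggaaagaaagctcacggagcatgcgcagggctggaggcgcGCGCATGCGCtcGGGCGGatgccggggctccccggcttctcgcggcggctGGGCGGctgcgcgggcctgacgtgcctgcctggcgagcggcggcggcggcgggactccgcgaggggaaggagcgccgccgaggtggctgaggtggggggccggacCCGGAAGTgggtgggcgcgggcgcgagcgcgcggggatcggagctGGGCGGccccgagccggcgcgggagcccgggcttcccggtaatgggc
Zbtb21: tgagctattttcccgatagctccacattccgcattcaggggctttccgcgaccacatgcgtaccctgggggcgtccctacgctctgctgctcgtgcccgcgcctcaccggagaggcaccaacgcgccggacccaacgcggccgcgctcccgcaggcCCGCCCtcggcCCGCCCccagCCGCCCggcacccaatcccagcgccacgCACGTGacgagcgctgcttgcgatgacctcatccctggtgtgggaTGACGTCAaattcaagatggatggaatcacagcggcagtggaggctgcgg
Zbtb11: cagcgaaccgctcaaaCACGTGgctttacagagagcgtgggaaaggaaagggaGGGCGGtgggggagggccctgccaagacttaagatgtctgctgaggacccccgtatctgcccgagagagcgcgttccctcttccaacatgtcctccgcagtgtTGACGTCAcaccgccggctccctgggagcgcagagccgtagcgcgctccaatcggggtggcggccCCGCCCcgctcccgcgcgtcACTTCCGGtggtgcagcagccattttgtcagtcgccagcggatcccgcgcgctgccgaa
Zbtb7a: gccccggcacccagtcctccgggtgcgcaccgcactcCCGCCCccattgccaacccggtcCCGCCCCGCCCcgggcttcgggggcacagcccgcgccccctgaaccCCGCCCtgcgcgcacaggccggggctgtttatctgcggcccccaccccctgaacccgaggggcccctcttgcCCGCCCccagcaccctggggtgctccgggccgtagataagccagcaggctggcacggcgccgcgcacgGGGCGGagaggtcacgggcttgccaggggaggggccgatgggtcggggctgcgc

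The windows were rich in CpG, as promoters of broadly transcribed genes usually are. RefSeq windows were found for 35 of the 39 members, 47 windows in all since some genes have several starts; Zbtb48, Zbtb40, Zbtb10 and Zbtb16 had none. The median was 25 CpG per window against 7 over 32851 windows of all genes. Those windows were not matched to the members in CpG content or in transcription, so the shares below compare unlike sets. A GC box was found in 66.0% of member windows and 35.7% of all windows, an E-box in 12.8% and 7.15%, and an ETS site in 8.51% and 3.89%. The CCAAT box (CCAAT) was less frequent in member windows, at 29.8% against 37.4%, and the TATA box (TATAAA) was in 12.8% and 13.6%. The cAMP response element was in the windows of Zbtb21 and Zbtb11, and in 1.79% of all windows. The NRF1 site was in the window of Zbtb41 and in both overlapping windows of Zbtb17, and in 0.971% of all windows. TCCTGCNA, a site reported for Kaiso, the product of Zbtb33, was in windows of Zbtb18 and Zbtb37 and in 4.96% of all windows. Windows of 1 gene can overlap, and a match of letters is not evidence of binding.

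Between the genotypes, no ZBTB member was called different. Of the 39 members, 32 passed the filter on low counts and were tested with edgeR's quasi-likelihood test, and 0 of them had an adjusted p under 0.05; over all 9565 genes tested the share called was 0.0105%, which is Lair1 alone. DESeq2 and limma-voom also called 0 members. At an unadjusted p under 0.05 there were 2 members in edgeR, Zbtb41 and Zbtb14 (6.25%, against 3.25% of all genes), and also 2 each in DESeq2 and limma-voom. Log2 fold changes of Lair1-/- over Lair1+/+ were positive for 18 and negative for 14 members with a median of 0.02, and the median over all genes tested was 0.0006. The 7 members that did not pass the filter, Zbtb49, Zbtb3, Zbtb12, Zbtb8b, Zbtb46, Zbtb16 and Zbtb32, had between 1 and 47 counts over all 6 libraries. Of these, Zbtb3 had 4, 7 and 4 counts in Lair1+/+ and 0, 1 and 2 in Lair1-/- libraries. Its depth-corrected levels were 0.504, 0.766 and 0.449 CPM and 0, 0.178 and 0.273 CPM, which did not overlap, but all Lair1-/- values were below the 3 counts that a count of 0 allows, and no fold is given.

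**Figure D2:**
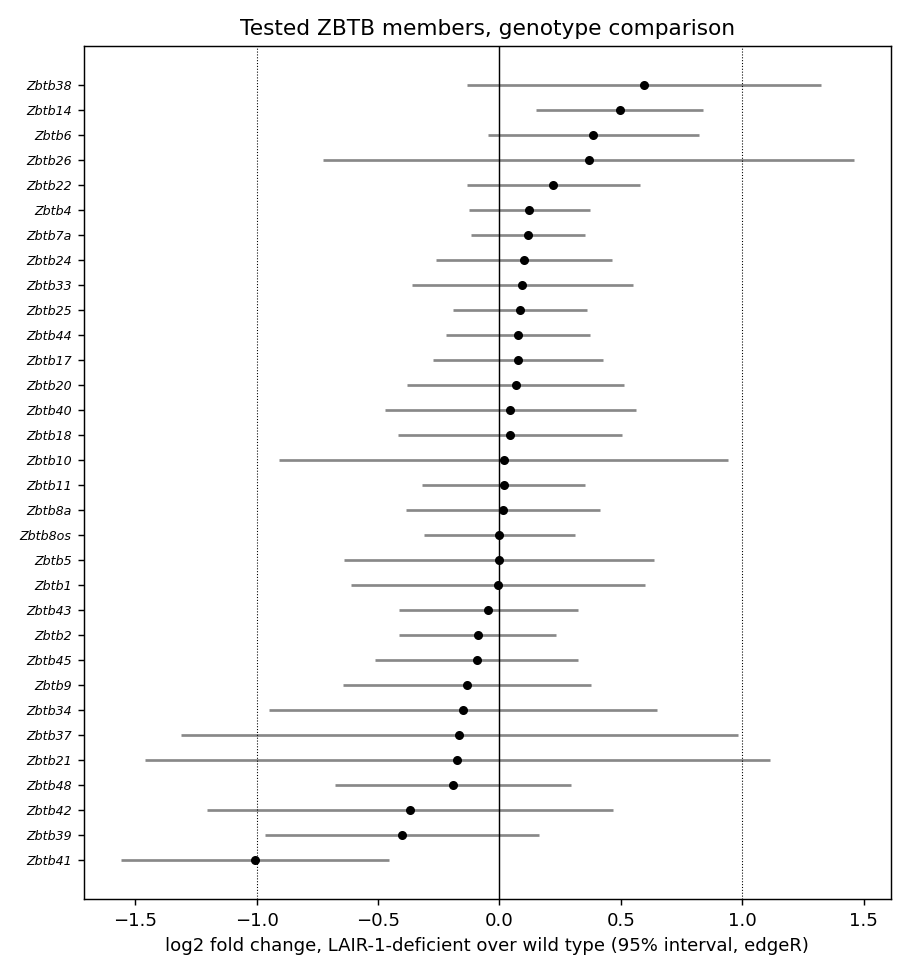
Log2 fold change of LAIR-1-deficient over wild type with its 95% interval (edgeR) for the 32 tested ZBTB members, ordered by fold, with dotted lines at a 2-fold change. Intervals of 30 members include 0; those of Zbtb41 (below 0) and Zbtb14 (above 0) do not.

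For most tested members the interval bounded the genotype difference to less than 2-fold. The 95% interval lay within 2-fold in both directions for 26 of 32 members (81.2%), against 85.9% of all genes tested. The exceptions were Zbtb41, Zbtb21, Zbtb38, Zbtb42, Zbtb37 and Zbtb26. For Zbtb7a the log2 fold change was 0.12 with an interval of -0.12 to 0.35, for Zbtb4 0.12 (-0.13 to 0.37), for Zbtb25 0.09 (-0.19 to 0.36) and for Zbtb17 0.08 (-0.27 to 0.43). Without mouse 1 of both groups, Zbtb25 was at 0.01 and Zbtb17 at -0.04. Zbtb1 and Zbtb8os were near 0, with intervals of -0.61 to 0.60 and -0.31 to 0.31. Without mouse 1 of both groups they were at 0.32 and -0.11.

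Libraries of the 2 genotypes did not overlap for 3 of the 32 tested members (9.38%), against 8.38% of all genes tested. In the direction of lower levels there was 1 member, against 4.09% of genes, and in that of higher levels 2 members, against 4.3% of genes. Zbtb41 (chromosome 1, 139422288 to 139453005, plus strand), a zinc finger gene whose exons overlap no other annotated gene, was at 8.70, 6.35 and 8.75 CPM in Lair1+/+ mice 1 to 3, from 69, 58 and 78 counts. It was at 3.32, 4.27 and 4.24 CPM in Lair1-/- mice, from 23, 24 and 31 counts. The highest Lair1-/- library was below the lowest Lair1+/+ library, and the log2 fold change was -1.01 ± 0.26 (SE) with an interval of -1.56 to -0.46. It had the largest fold change, in either direction, of the 32 tested members. Leaving out single libraries moved it between -1.15 and -0.90, and without mouse 1 of both groups it was -0.83.

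Zbtb14 and Zbtb6 were higher in every Lair1-/- library than in every Lair1+/+ library. Zbtb14, a zinc finger factor that binds GC-rich DNA, was at 20.3, 15.1 and 15.1 CPM in Lair1+/+ and at 21.3, 26.7 and 23.2 CPM in Lair1-/- mice. The gap between the groups was that between the mouse 1 libraries, 20.3 and 21.3 CPM. Its log2 fold change was 0.49 ± 0.16 with an interval of 0.15 to 0.84, and 0.71 without mouse 1 of both groups. Zbtb6 was at 9.21, 8.21 and 6.51 CPM and at 10.2, 10.3 and 10.7 CPM, and its log2 fold change was 0.39 ± 0.21 (-0.05 to 0.82). Zbtb26, which shares exonic bases with Zbtb6, was at 1.51, 1.09 and 0.785 CPM and at 1.44, 1.25 and 1.64 CPM, with overlap and a log2 fold change of 0.37 (-0.73 to 1.46). How reads were divided between these 2 genes is not known here.

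**Figure D3:**
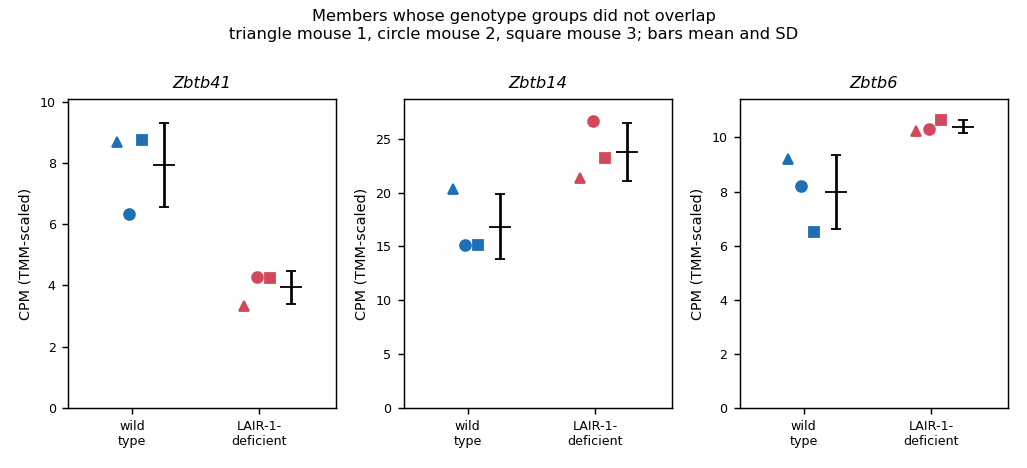
CPM of Zbtb41, Zbtb14 and Zbtb6 in each library, by genotype, with mean and SD beside the points and axes starting at 0. Zbtb41 lies at 6.35 to 8.75 CPM in wild type and 3.32 to 4.27 CPM in LAIR-1-deficient mice, while Zbtb14 and Zbtb6 are higher in all 3 LAIR-1-deficient libraries.

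The members next in order of the edgeR test, Zbtb38 among those with a positive and Zbtb39 and Zbtb42 among those with a negative fold change, did not reach an unadjusted p under 0.05 and overlapped between genotypes. Zbtb38 had a log2 fold change of 0.60 ± 0.35 (-0.13 to 1.33), which was 0.86 without Lair1+/+ mouse 1 and 0.37 without Lair1-/- mouse 1. Zbtb39 was at 7.69, 5.36 and 6.51 CPM in Lair1+/+ and 3.89, 4.98 and 5.88 CPM in Lair1-/- mice, so its log2 fold change was -0.40 (-0.97 to 0.16). Without mouse 1 of both groups it was -0.12. Zbtb42 was at 5.55, 2.74 and 2.80 CPM and at 3.89, 1.78 and 2.73 CPM. It had a log2 fold change of -0.37 (-1.21 to 0.47), which was 0.03 without Lair1+/+ mouse 1. Over the 13 alternatives in which Zbtb42 was tested, the value lay between -0.68 and 0.03.

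The widest spread of any abundant member belonged to Zbtb21 and lay with the mouse number. Zbtb21, whose product is known to bind that of Zbtb14, was at 70.9 CPM in Lair1+/+ mouse 1 and 58.7 CPM in Lair1-/- mouse 1. In mice 2 and 3 it was at 33.7 and 31.9 CPM in Lair1+/+ and at 30.6 and 30.9 CPM in Lair1-/- cells. The mean of both mouse 1 libraries was 2.04 times that of the 4 others. Both mouse 1 libraries also held the highest levels of Zbtb10, which binds telomeric repeats, with 5.55 and 8.07 CPM. In mice 2 and 3 Zbtb10 was at 4.16 and 3.25 CPM in Lair1+/+ and at 1.96 and 2.87 CPM in Lair1-/- cells. The same held for Zbtb42, with 5.55 and 3.89 CPM in the mouse 1 libraries against 1.78 to 2.80 CPM. Zbtb8a was the fourth such member, at 12.6 and 12.3 CPM against 9.78 to 11.3 CPM. These 4 members are 12.5% of those tested, against 11.9% of all genes tested. In the other direction, both mouse 1 libraries were below the 4 others for Zbtb25, Zbtb33, Zbtb37 and Zbtb5 (12.5%, against 12.1% of all genes), with Zbtb33 at 12.1 and 11.96 CPM against 14.2 to 20.2 CPM. The sum of the immediate early genes was high in the same 2 libraries, and its part in these levels was not tested.

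**Figure D4:**
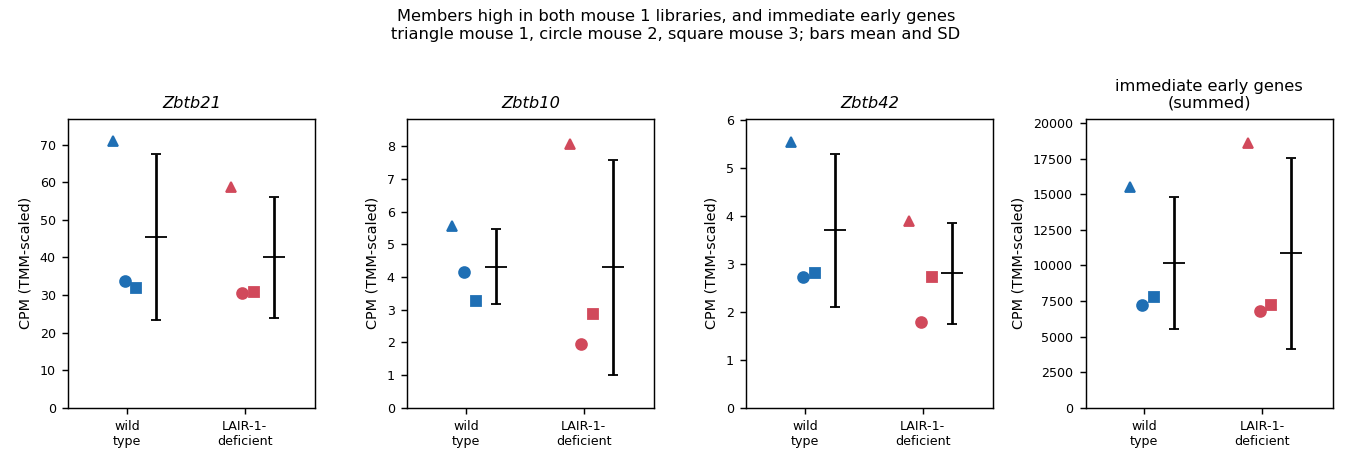
CPM of Zbtb21, Zbtb10 and Zbtb42, and the summed CPM of 25 immediate early genes, in each library by genotype, with mean and SD beside the points and axes starting at 0. In all 4 panels the triangle of mouse 1 is the highest point of its genotype, at 70.9 and 58.7 CPM for Zbtb21.

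The genotype fold of these members depended on which mouse 1 library was present. For Zbtb21 the log2 fold change was -0.17 (-1.46 to 1.11). It was 0.29 without Lair1+/+ mouse 1, -0.56 without Lair1-/- mouse 1 and -0.10 without both. For Zbtb10 it was 0.02 (-0.91 to 0.94), -0.81 without Lair1-/- mouse 1 and -0.60 without both mouse 1 libraries.

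Related genes outside the family rows had no call between genotypes either, by edgeR, with 0 genes of each list at an unadjusted p under 0.05, against 3.25% of all genes; at the size of these lists that share comes to less than 1 gene each. Of 8 further BTB zinc finger genes in the table, 7 were tested, with 4 positive and 3 negative fold changes and a median of 0.03. The most abundant was Patz1, a repressor of thymocytes, at 39.2 ± 4.25 CPM in Lair1+/+ and 36.1 ± 2.69 CPM in Lair1-/- cells. Mynn was at 18.7 ± 2.75 and 23.5 ± 2.33 CPM, and the tumour suppressor Hic1 at 2.25 ± 0.609 and 1.48 ± 1.47 CPM. Counts of Hic1 were 15, 27 and 17 in Lair1+/+ and 22, 4 and 4 in Lair1-/- mice 1 to 3, and its log2 fold change of -0.59 was -1.84 without Lair1-/- mouse 1 and -1.95 without mouse 1 of both groups. Corepressors of BTB zinc finger proteins, listed with other subunits of their complexes and Cul3 (20 tested), had 10 positive and 10 negative fold changes and a median of 0.006. Gps2, a subunit of the NCOR complex, was the most abundant at 369 ± 8.43 and 354 ± 29.6 CPM, and Ncor1 itself was at 274 ± 11.3 and 274 ± 29.5 CPM. Rcor1 and Mta3 had log2 fold changes of 0.47 (-0.07 to 1.02) and 0.21 (-0.03 to 0.45).

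DNA methylation and ICF syndrome genes (12 tested) had 6 positive and 6 negative fold changes, median 0.03. Mbd2, a methyl-CpG reader, was at 191 ± 8.64 and 184 ± 3.71 CPM, the maintenance methyltransferase Dnmt1 at 73.1 ± 10.7 and 89.3 ± 18.3 CPM, and the repair glycosylase Mbd4 at 12.7 ± 2.99 and 9.38 ± 4.23 CPM. Partners and reported targets of MIZ1 (14 tested) had 8 positive and 6 negative fold changes, median 0.10. Of these, Bcl2, which blocks apoptosis, was at 292 ± 15.5 and 273 ± 22.2 CPM, Mlx at 70.3 ± 7.61 and 79.7 ± 2.61 CPM, and the ubiquitin ligase Huwe1 at 97.0 ± 10.3 and 109.5 ± 14.7 CPM. Immediate early genes (21 tested) had 15 positive and 6 negative fold changes, median 0.05; Junb, the most abundant, was at 1856 ± 657 and 1886 ± 736 CPM, and Myc and Jund had log2 fold changes of 0.15 and 0.28. Without mouse 1 of both groups these were -0.04 for Myc and 0.03 for Jund, and Jund was at -0.19 without Lair1-/- mouse 1 alone. The count of positive and negative fold changes was not recomputed without mouse 1.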

How the data were processed

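The deposited table holds raw counts of each gene, with a column for each mouse, per the file headers. The submitters' processing notes name BWA, without a version, and mm10. Not given in the sources used here are the gene annotation, the counting tool, its strand setting and whether molecular identifiers were used. Per the labels' protocols, RNA was extracted with TRIzol and the primers of the sequencing libraries were Illumina's TruSeq small RNA set. Columns were matched by sample description and groups taken from titles. The 4 spike-in rows (at most 4 counts per library) were left out.

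The genotype test was that of edgeR 4.0.16 under R 4.3.3 (filterByExpr with a smallest count of 10, TMM scaling, robust quasi-likelihood F test, two-sided, no covariate), with Benjamini-Hochberg adjustment over 9565 genes and a threshold of 0.05. SEs and 95% intervals were derived from the F statistic. Alternatives used DESeq2 1.42.0, limma 3.58.1 (voom), other scalings and filters, a mouse number block and left-out libraries. The test was tried on simulated data. Exon lengths and positions are from GENCODE vM21, which matched 14312 rows by symbol or synonym and chromosome.

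The members and gene lists were chosen with earlier results of these data known. Values per library are given for Lair1, the 10 most abundant tested members, the 3 members per direction with the smallest unadjusted p, and members with a known lymphocyte, methyl-CpG or genome role. Each list is represented by its most abundant gene and the 2 with the smallest p. Other genes were named after their values were seen. Genes absent from the table were not analysed here.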

Additional observations from a re-analysis of the deposited data

How the results depend on the processing

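The number of ZBTB members called was 0 under every alternative tried. The number of genes called, 1 with all libraries, was 3 without a low-count filter and 0 with limma-voom and without mouse 1 of both groups. It was also 0 with a stricter filter (smallest count 30), under which Lair1 itself was not tested. Leaving out single libraries gave between 0 and 2. The median log2 fold change of the tested members was 0.02 and lay between -0.0094 and 0.079 when single libraries were left out. Of 24 named and tested members, 9 kept the sign of their fold change under all alternatives tried (Zbtb14, Zbtb22, Zbtb38, Zbtb39, Zbtb4, Zbtb41, Zbtb44, Zbtb6 and Zbtb7a), and the sign of the other 15 changed under at least 1. Naming took in the 3 members per direction with the smallest unadjusted p, which favours a kept sign. The share over all genes was not computed.

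With the mouse number as a replicate block, 0 members and 1 gene were called and the median of the members was 0.01. Same-numbered libraries deviated together for mouse 1 (r = 0.29 across 9565 genes) but hardly for mice 2 (0.009) and 3 (0.07). Between unlike-numbered libraries r lay between -0.22 (Lair1+/+ mouse 3 with Lair1-/- mouse 1) and 0.18 (Lair1+/+ mouse 3 with Lair1-/- mouse 2). The labels give no batch, so the numbers were not taken as pairs in the main test. Depth limits members below about 1 CPM.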
